A study of Rattus norvegicus with 58 samples.

Results

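The 6 genes described here encode proteins of the connective tissue matrix. They were followed through rat synovium, chosen by identifier: the fibrillar collagen genes Col1a1 (ENSRNOG00000003897), Col1a2 (ENSRNOG00000011292) and Col3a1 (ENSRNOG00000003357), fibronectin Fn1 (ENSRNOG00000014288), and the matricellular genes Sparc (ENSRNOG00000012840) and Postn (ENSRNOG00000012660). All 6 were among the 16879 identified rows of the table, and all 6 were among the 13062 rows that were tested. RNA came from whole synovial tissue of female DA/OlaHsd rats, in 58 libraries that fell into 10 groups. Pristane, a hydrocarbon oil that provokes polyarthritis, had been injected (250 µl) at 6 to 8 weeks of age, and time zero was the day after both rear limbs had reached a score of at least 3. Rats with pristane-induced arthritis (PIA) were sampled without treatment (n = 4), or once they had been treated with either RTD-1 or saline. Each of these 2 arms had 4 libraries at day 1, 8 at day 3 and 8 at day 5. Healthy rats given RTD-1 were sampled after 3 days (n = 5) and 5 days (n = 5), and naive rats (n = 4) had neither arthritis nor treatment. The peptide RTD-1, a theta-defensin of the rhesus macaque with a circular backbone, was dissolved in saline and injected subcutaneously (5 mg/kg). No group of healthy rats given saline is among the 10 groups. The labels do not say which libraries came from separate animals or whether animals were pooled, so the p-values refer only to variation among the libraries at hand, part of which may be technical. The symbols above come with the choice of genes. No table used here pairs the remaining identifiers with symbols, so the identity of the tissue was not checked against cell type markers, and other collagens, processing enzymes, integrins and TGF-beta genes were not analysed here.

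Type I collagen, the main fibre of bone, tendon and joint capsule, is a triple helix that joins a pair of chains made from Col1a1 with a single chain made from Col1a2. Type III collagen, made from Col3a1, forms finer fibres that lie together with type I in stretchable and healing tissue. Fibronectin is a glycoprotein that links cells, through integrins, to collagen and fibrin. SPARC (osteonectin) and periostin bind collagen and shape how fibres are laid down, and both are made by fibroblasts in tissue under repair. In the synovium, fibroblasts of the lining and the layer beneath it are the main source of this matrix, and in chronic arthritis these cells multiply to form pannus.

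The sequences before the start sites are shown for the members with an entry in the RefSeq promoter table (build GRCr8), because 2 of these 3 genes, Postn and Sparc, were raised together in arthritis and the third, Col1a2, has a row that behaved unlike the rest. Each window runs from 250 bases before to 50 bases after the start listed in that table, 5′ to 3′ on the strand of the gene. Whether a listed start is the start of transcription was not tested. Capitals mark matches on either strand to 4 motifs. The TATA box was searched as TATAAA. The CCAAT box was searched by the letters of its name. The AP-1 motif was searched as TGANTCA, where N is any base. The GC box was searched as GGGCGG. No matches overlap.
Postn, chr2:140677811-140678110, plus strand: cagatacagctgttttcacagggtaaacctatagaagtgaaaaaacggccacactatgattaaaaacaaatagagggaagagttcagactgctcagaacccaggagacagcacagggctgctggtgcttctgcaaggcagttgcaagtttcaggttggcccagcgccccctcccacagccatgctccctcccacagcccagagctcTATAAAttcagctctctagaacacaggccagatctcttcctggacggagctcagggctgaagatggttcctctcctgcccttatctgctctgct
Sparc, chr10:40038767-40039066, minus strand: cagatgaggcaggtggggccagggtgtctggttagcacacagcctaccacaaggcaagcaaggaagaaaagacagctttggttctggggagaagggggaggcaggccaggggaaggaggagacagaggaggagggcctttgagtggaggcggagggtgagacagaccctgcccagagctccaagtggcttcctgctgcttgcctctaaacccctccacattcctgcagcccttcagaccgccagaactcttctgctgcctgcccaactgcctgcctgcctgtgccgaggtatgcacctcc
Col1a2, chr4:33518307-33518606, plus strand: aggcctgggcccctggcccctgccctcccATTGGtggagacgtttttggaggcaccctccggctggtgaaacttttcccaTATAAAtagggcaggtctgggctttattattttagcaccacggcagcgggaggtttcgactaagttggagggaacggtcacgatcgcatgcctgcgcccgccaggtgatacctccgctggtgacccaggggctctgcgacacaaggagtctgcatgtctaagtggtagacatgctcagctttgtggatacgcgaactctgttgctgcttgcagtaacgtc
Postn held a TATA box match 44 bases before its start. Col1a2 held a TATA box match 170 bases before its listed start. It also held a CCAAT box match on the reverse strand, printed here as its complement, 221 bases before that start. The listed start of Col1a2 falls on the letters atg, those of a start codon. Its distances are therefore not given as distances from the start of transcription and are not compared with that of Postn. Sparc held none of the 4 motifs in this window. Of 33469 promoter windows of the same length in the table, 14.2% held the TATA box letters, 37.5% those of the CCAAT box, 7.33% those of the AP-1 motif and 33.1% those of the GC box, so a match is a description and marks no binding site. Col1a1, Col3a1 and Fn1 are named without a sequence.

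Reads assigned to genes numbered 464693 in the shallowest library and 7716834 in the deepest. The deposited values are the log2 of whole reads times 1 factor per library, and here they are given as normalized reads, meaning reads at the depth of the median library. Libraries of 13 samples were sequenced more deeply, with a factor of at least 10 megareads, a limit set after the values were seen. These were all 10 healthy RTD-1 libraries and 3 saline libraries, namely day 1 replicate 2, day 3 replicate 4 and day 5 replicate 1. Depth and the healthy RTD-1 groups therefore cannot be told apart. Reads of different genes were not divided by transcript length, which the file does not give, so values are compared between libraries and not as levels of 1 gene against another.

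The row labelled Col1a2 did not follow Col1a1, although both chains are needed for type I collagen. It was listed at 0 reads in each of the 45 other libraries, in which Col1a1 had between 21654 and 180643 reads. A count of 0 allows up to 3 reads per library, by counting error only. In the 13 deeper libraries it had between 797 and 1784 reads. In normalized reads these were 372, 412, 417, 436 and 471 in healthy rats after 3 days of RTD-1, 281.0, 393, 527, 460 and 642 in healthy rats after 5 days, and 545, 383 and 339 in the deeper saline libraries of days 1, 3 and 5. The row was thus on or off with the deeper libraries, across arthritic and healthy rats alike. Among 16879 rows it was the only 1 with 0 reads in all 45 other libraries and at least 100 normalized reads in every deeper library. With any read at all in every deeper library there were 24 such rows, and 0 rows showed the reverse pattern. Where both genes had reads, Col1a1 had between 43.8 and 121.1 reads per Col1a2 read in the healthy libraries, against 254.1 to 406.7 in the 3 deeper arthritic libraries. The row passed the filter on low values only through the deeper libraries. It is therefore described by its reads, with no fold, and the counts of members below are over the other 5 genes.

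**Figure D1:**
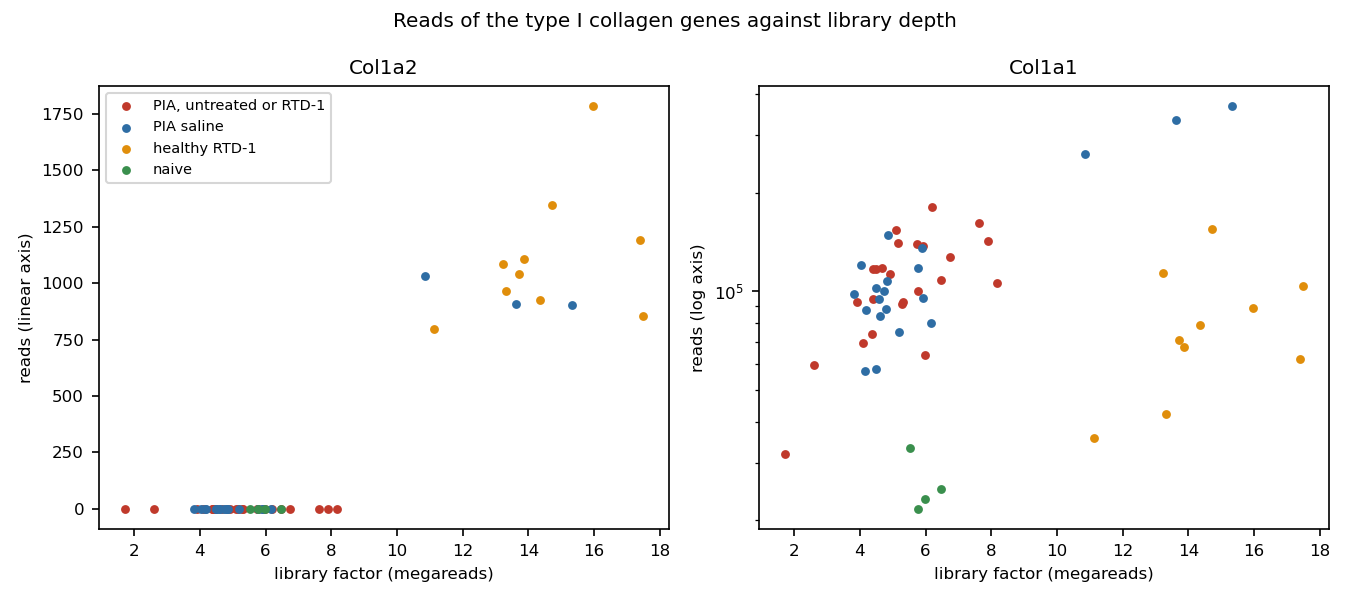
Reads of Col1a2 (left, linear axis) and Col1a1 (right, log axis) against the factor of each library in megareads, with 1 point per library coloured by treatment. Col1a2 had reads in the 13 deeper libraries, between 797 and 1784, and 0 reads in each of the 45 others, while Col1a1 had at least 21654 reads in each of those 45.

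The first comparison asked which of these genes differed between arthritic and naive synovium. Col1a1, Col3a1, Sparc and Postn rose in untreated PIA, and Fn1 did not pass the test. The test was limma on log2(normalized reads + 1) over all 13062 genes, in 1 fit of the 10 groups, and a gene was called at a Benjamini-Hochberg adjusted p under 0.05. It called 4 of the 5 genes, all 4 upward, where 39.3% of all tested genes were called and 27.8% were called upward. The median log2 fold change was 1.98 over the 5 genes, beside 0.28 over all genes tested. In whole tissue, a larger number of cells of a type and more RNA per cell cannot be told apart.

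Col1a1 had 173484, 99649, 156556 and 61164 normalized reads in the PIA libraries, against 22179, 22266, 21603 and 34572 in the naive libraries. The groups did not overlap, although PIA replicate 4 and naive replicate 4 came nearest to each other. The gene rose 4.60-fold (2.20 on the log2 scale, SE 0.28, limma adjusted p = 5.29e-09), more than 95.5% of all tested genes. It took more reads than any other gene in every arthritic library except the 3 deeper saline libraries, in each of which it came second.

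Col3a1 had 122152, 65969, 110900 and 42096 normalized reads in the PIA libraries, against 17726, 18565, 19897 and 23550 in the naive libraries. The groups were again separate, and PIA replicate 4 was again the lowest of its group. Type III collagen RNA rose 3.95-fold (log2 fold change 1.98, SE 0.27, limma adjusted p = 2.10e-08).

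Fn1 had 46934, 28385, 29698 and 26965 normalized reads in the PIA libraries, against 35589, 25003, 36189 and 23980 in the naive libraries. The ranges overlapped, and only PIA replicate 1 lay above every naive library. The log2 fold change was 0.12 (SE 0.42, limma adjusted p = 0.853), with a 95% interval from -0.72 to 0.95, and it was -0.18 with TMM factors, so its direction depended on the scaling. Fibronectin RNA was abundant without arthritis: Fn1 took the most reads of any gene in 2 of 4 naive libraries.

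Sparc had 26984, 14885, 25567 and 9065 normalized reads in the PIA libraries, against 6357, 7856, 9840 and 9565 in the naive libraries. PIA replicate 4 lay among the naive libraries and the other 3 PIA libraries lay above them. Sparc rose 2.11-fold (log2 fold change 1.08, SE 0.26, limma adjusted p = 0.000689).

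Postn had 16472, 9446, 13957 and 2799 normalized reads in the PIA libraries, against 1080, 1495, 2083 and 1473 in the naive libraries. Every PIA library was above every naive library, with PIA replicate 4 well below the other 3. Periostin had the largest fold of the 5 genes, 5.92-fold (log2 fold change 2.56, SE 0.38, limma adjusted p = 2.06e-07), above 96.9% of all tested genes.

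The scaling bears on these folds because the median of all genes was itself 0.28 higher in PIA on the log2 scale. With TMM factors that median was 0, genes called over the whole table numbered 2577 higher and 2569 lower in place of 3637 higher and 1493 lower, and Col1a1, Col3a1, Sparc and Postn gave log2 fold changes of 1.91, 1.69, 0.78 and 2.27, each still called.

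**Figure D2:**
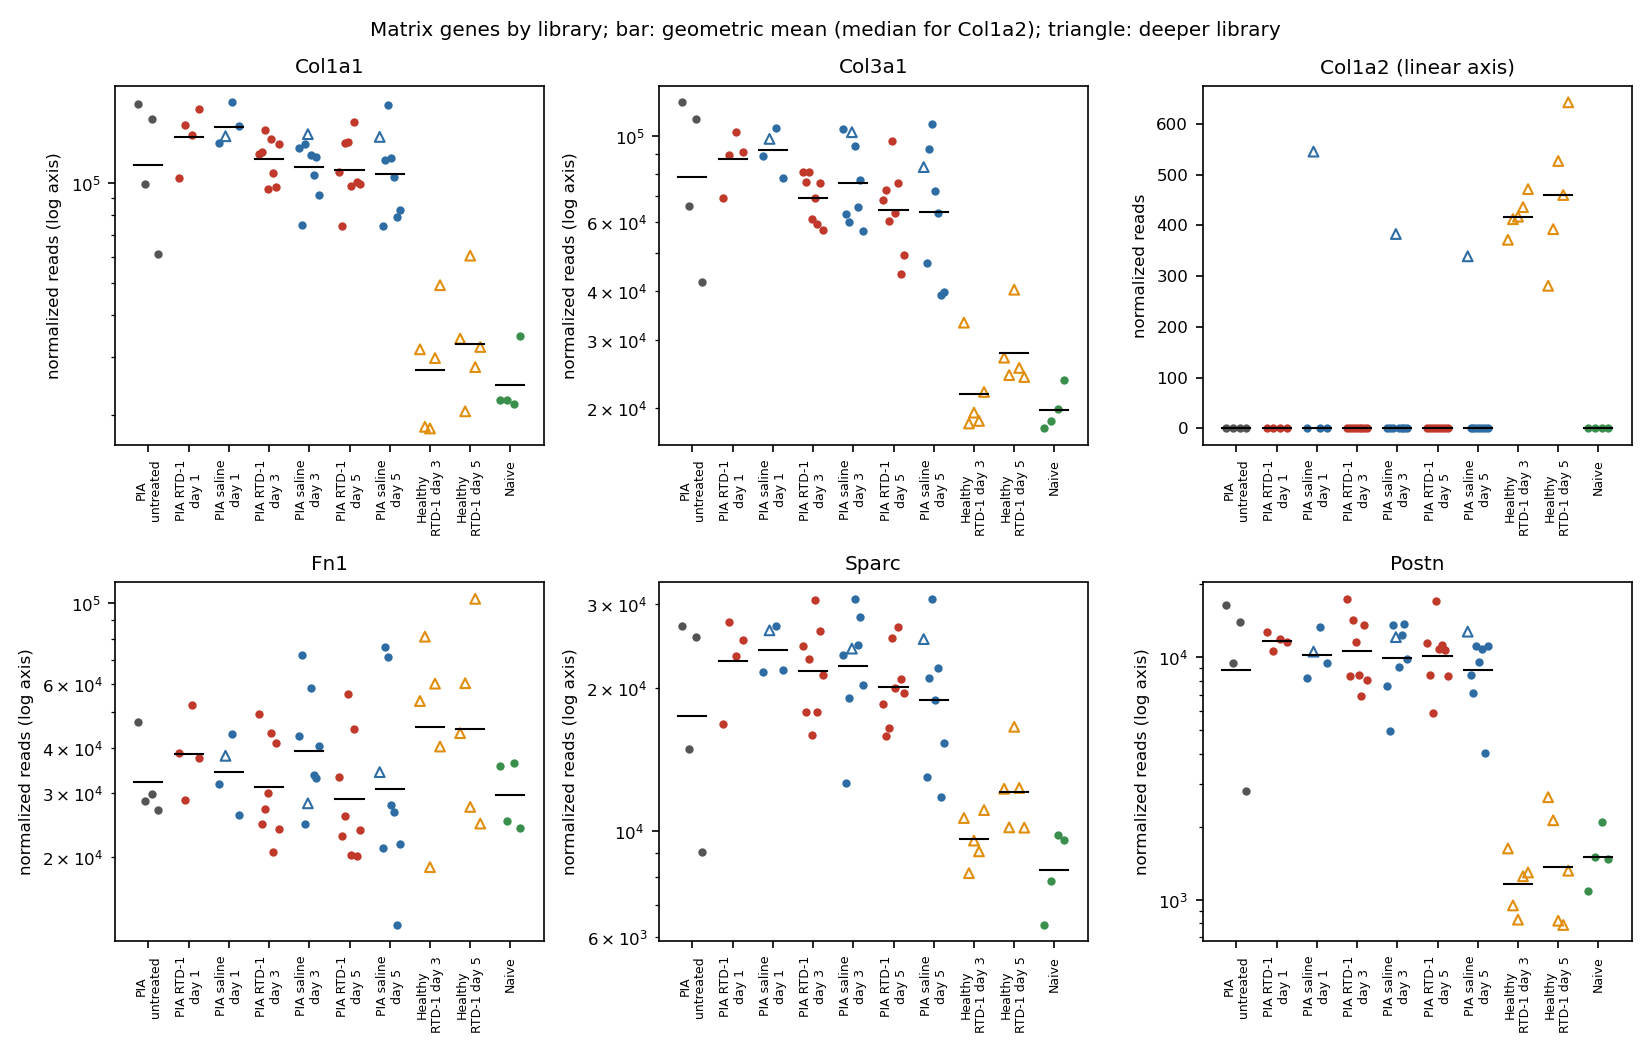
Normalized reads of each gene in every library (log axis, linear for Col1a2), with 1 point per library, triangles for the 13 deeper libraries, and a bar at the geometric mean of a group (median for Col1a2). Col1a1, Col3a1, Sparc and Postn had higher group means in the 7 arthritic groups than in the healthy and naive groups, while Fn1 overlapped across all 10 groups, and its small difference between PIA and naive changed sign with TMM factors.

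Across all 10 groups, Col1a1 fell into an arthritic range and a lower healthy range. It averaged 122713 ± 51779 normalized reads in untreated PIA (SD, n = 4), 140152 ± 26822 and 148665 ± 18948 after 1 day of RTD-1 and of saline (n = 4 each), 119805 ± 17890 and 114388 ± 21916 after 3 days of each (n = 8 each), and 112420 ± 25204 and 110789 ± 33242 after 5 days of each (n = 8 each). Healthy rats had 29484 ± 12702 at day 3 of RTD-1 and 35047 ± 15159 at day 5 (n = 5 each), and naive rats 25155 ± 6285 (n = 4). The lowest arthritic library, PIA replicate 4, had 61164, and the highest library of the other groups, healthy day 5 replicate 3, had 60534. How many of all tested genes keep arthritic and other libraries apart in this way was not counted. In the order of mean log2 values, the single step between neighbouring groups whose ranges did not overlap was the step of 1.70 between saline day 5 and healthy day 5. All other neighbours differed by less than the larger of their SDs.

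Col3a1 averaged 85279 ± 37655 normalized reads in untreated PIA, 88145 ± 13928 and 92726 ± 11705 after 1 day of RTD-1 and of saline, 70114 ± 9609 and 78048 ± 19614 after 3 days, and 66400 ± 16392 and 68067 ± 25275 after 5 days. It averaged 22285 ± 6256 and 28193 ± 6862 in healthy rats after 3 and 5 days of RTD-1 and 19935 ± 2571 in naive rats (SD, n as for Col1a1). Here the arthritic and healthy ranges touched: saline day 5 replicate 7, with 39021, lay just below healthy day 5 replicate 3, with 40296. All other arthritic libraries except saline day 5 replicate 8, with 39664, were above every healthy and naive library. Apart from the step of 1.21 in mean log2 value between saline day 5 and healthy day 5, neighbouring groups differed by less than the larger of their SDs.

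Sparc averaged 19125 ± 8611 normalized reads in untreated PIA, 23180 ± 4576 and 24166 ± 2877 after 1 day of RTD-1 and of saline, 22128 ± 4930 and 22860 ± 5617 after 3 days, and 20426 ± 3916 and 19725 ± 6410 after 5 days. Healthy rats had 9706 ± 1181 and 12304 ± 2605 after 3 and 5 days of RTD-1, and naive rats 8405 ± 1623. No neighbouring groups in the order of Sparc levels had separate ranges, so for this gene the arthritic and healthy ranges overlapped. The step of 0.33 in mean log2 value between the healthy groups of day 5 and day 3 alone exceeded the larger SD of its pair (0.29).

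Postn averaged 10669 ± 5998 normalized reads in untreated PIA, 11674 ± 881.0 and 10368 ± 2146 after 1 day of RTD-1 and of saline, 11083 ± 3731 and 10396 ± 3063 after 3 days, and 10497 ± 3243 and 9349 ± 2770 after 5 days. It averaged 1187 ± 314 and 1537 ± 821 in healthy rats after 3 and 5 days of RTD-1 and 1533 ± 414 in naive rats. Every arthritic library had at least 2799 and every healthy or naive library at most 2643. The 44 arthritic and the 14 other libraries thus did not overlap for this gene, by a narrow gap. The share of all tested genes without such overlap was not counted. The step of 2.56 in mean log2 value between untreated PIA and naive was the only step between neighbouring groups with separate ranges, and the other steps were smaller than the larger SD of each pair.

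Fn1 had no such split. It averaged 32995 ± 9359 normalized reads in untreated PIA, 39301 ± 9752 and 34837 ± 7617 after 1 day of RTD-1 and of saline, 32595 ± 10816 and 41617 ± 16150 after 3 days, and 30870 ± 13168 and 36376 ± 23649 after 5 days. The 2 highest group means were those of healthy rats after 3 and 5 days of RTD-1, at 50741 ± 23159 and 51823 ± 31961, and naive rats had 30190 ± 6598. No neighbouring groups in the order of Fn1 levels differed by more than the larger of their SDs. Single libraries ranged widely, with 18690 and 80949 both among healthy rats of day 3, and 12938 and 75661 both in saline day 5.

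The central treatment comparison asked whether RTD-1 changed expression in arthritic rats relative to saline given for as long. None of the 5 genes was called on any day. limma called 0 of 5 on day 1, 0 of 5 on day 3 and 0 of 5 on day 5, where it called 0%, 0.00766% and 0% of all tested genes. At an unadjusted p under 0.05 the members numbered 0 on each day, beside 4.69%, 7.73% and 3.60% of all genes, and limma voom on the recovered reads also called 0 of 5 on each day.

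On day 1, Col1a1 had 103819, 149963, 139445 and 167381 normalized reads after RTD-1, against 132412, 138580, 175332 and 148336 after saline. Both arms covered much the same range. The log2 fold change was -0.10 (95% interval -0.66 to 0.46). Those of Col3a1, Fn1, Sparc and Postn were -0.08, 0.17, -0.08 and 0.19, with intervals that together ran from -0.67 to 1.00.

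On day 3, Col1a1 ran from 96085 through a median of 123024 to 144214 normalized reads after RTD-1, against 74683 through 120970 to 140601 after saline. The arms overlapped over nearly their whole range, at a log2 fold change of 0.08 (95% interval -0.32 to 0.48). Col3a1 ran from 57321 through 72492 to 80846 after RTD-1, against 57156 through 71402 to 104550 after saline (log2 fold change -0.13, interval -0.51 to 0.25). Fn1 had the largest difference of the day among the 5 genes, with 20546 to 49616 and a median of 28429 after RTD-1, against 24617 to 72017 and a median of 36928 after saline. On the log2 scale this was -0.33 (SE 0.29, limma adjusted p = 0.839), within the spread. Sparc and Postn gave -0.03 and 0.09.

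On day 5, Col1a1 ran from 74609 through a median of 104599 to 153300 normalized reads after RTD-1, against 74103 through 110773 to 171845 after saline (log2 fold change 0.04, 95% interval -0.35 to 0.44). Postn ran from 5881 through 10790 to 16981 after RTD-1, against 4028 through 10147 to 12738 after saline, a log2 fold change of 0.18 (interval -0.35 to 0.71). The arms overlapped for both. Col3a1, Fn1 and Sparc gave 0.02, -0.10 and 0.10. Over the 5 genes the intervals of day 5 ran from -0.69 to 0.71, which bounds the differences these libraries can show.

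Averaged over the 3 days, RTD-1 minus saline gave log2 fold changes between -0.09 and 0.15 for the 5 genes. limma called 0 of 5, beside 0% of all genes, and at an unadjusted p under 0.05 the members numbered 0, beside 5.82% of all genes. Differences of the RTD-1 effect between days were called for 0 of 5 genes in each of the 3 contrasts, beside 0.00766% (day 3 minus day 1), 0% (day 5 minus day 3) and 0% (day 5 minus day 1) of all genes. At an unadjusted p under 0.05 the members numbered 0 in each, beside 5.32%, 7.02% and 4.80% of all genes. The limma voom fit also called 0 of 5 in these 4 contrasts.

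The next comparisons asked whether levels in treated arthritic rats differed from those in untreated arthritic rats. They share the 4 PIA libraries as reference, a group for which no sampling day is listed here. None of the 5 genes was called in either arm on any day. Beside 0 of 5, limma called 0%, 0.00766% and 12.7% of all genes after 1, 3 and 5 days of RTD-1, and 0%, 0.0153% and 8.37% after 1, 3 and 5 days of saline. On day 5 these were mostly lower calls, 1.33% higher and 11.3% lower with RTD-1, and 1.28% higher and 7.09% lower with saline. At an unadjusted p under 0.05 the members numbered 0 in all 6 comparisons, beside 2.09%, 8.70% and 29.7% of all genes after 1, 3 and 5 days of RTD-1 and 5.35%, 14.7% and 26.0% after 1, 3 and 5 days of saline. limma voom also called 0 of 5 in each. After 5 days the log2 fold changes over untreated PIA were -0.05 with RTD-1 and -0.09 with saline for Col1a1, -0.28 and -0.29 for Col3a1, -0.16 and -0.06 for Fn1, 0.20 and 0.11 for Sparc, and 0.19 and 0.01 for Postn. The median of all genes was -0.24 with RTD-1 and -0.22 with saline in the same comparisons. With TMM factors Col1a1 was 0.22 with RTD-1 and 0.13 with saline and Fn1 was 0.10 and 0.15, so the direction of both genes turned with the scaling. Other alternatives turned Sparc and Postn as well, and Col3a1 with saline. Over all of them Sparc ran from -0.11 to 0.46 with RTD-1 and from -0.21 to 0.32 with saline. Postn ran from -0.36 to 0.49 and from -0.54 to 0.31. Col3a1 ran from -0.575 to -0.0151 with RTD-1 and from -0.593 to 0.0129 with saline. Intervals were wide, from -0.88 to 0.84 with RTD-1 and from -0.79 to 0.66 with saline over the 5 genes.

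Matrix genes were therefore also set against naive tissue at day 5. After RTD-1, 4 of 5 genes were called, all higher, beside 25.6% of all genes called and 14.5% called higher. After saline, the same 4 were called higher, beside 27.1% called and 16.5% called higher. Log2 fold changes over naive were 2.16 after RTD-1 and 2.11 after saline for Col1a1, 1.71 and 1.69 for Col3a1, 1.28 and 1.18 for Sparc, and 2.75 and 2.57 for Postn (limma adjusted p at most 3.29e-05). Fn1 gave -0.04 after RTD-1 and 0.05 after saline (limma adjusted p = 0.957 and 0.938), and with TMM factors -0.07 and -0.02, so the sign of the saline value turned with the scaling. Both comparisons share the naive libraries.

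**Figure D3:**
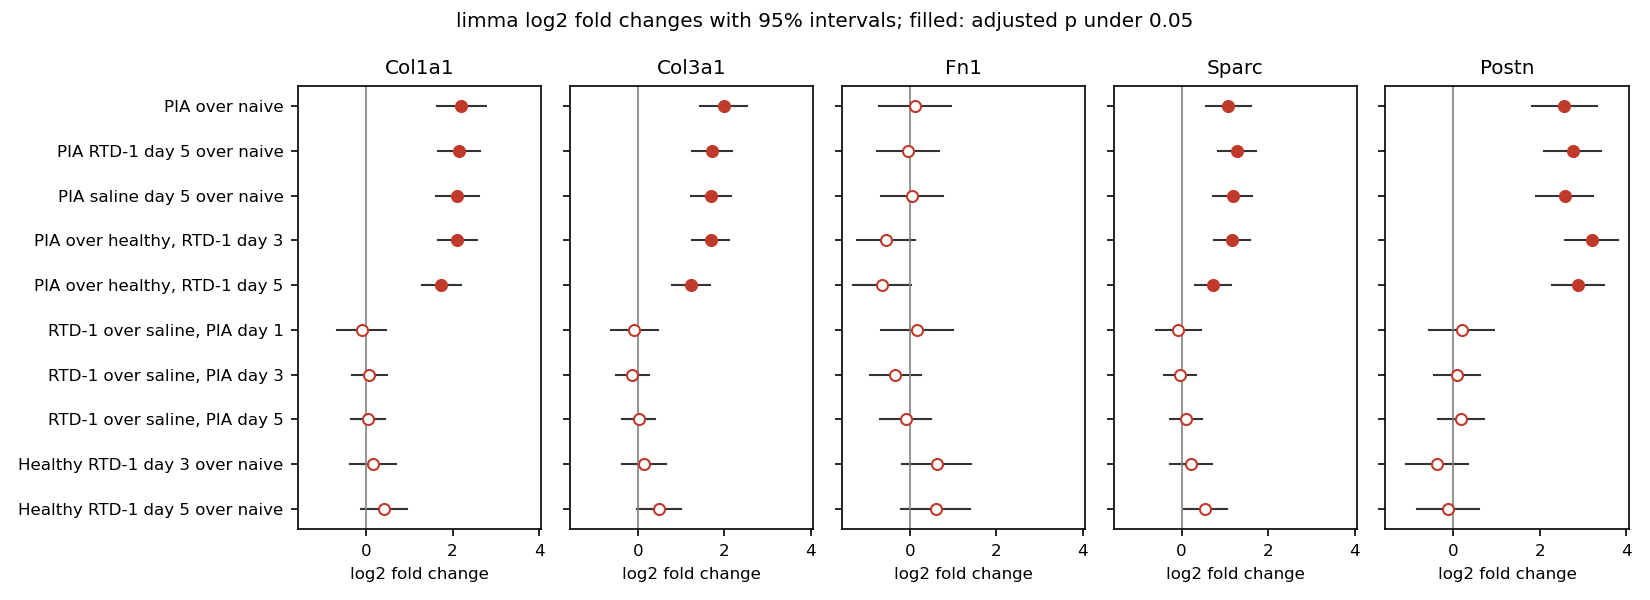
Log2 fold changes from limma of Col1a1, Col3a1, Fn1, Sparc and Postn in 10 comparisons, with 95% intervals as lines and filled points for adjusted p under 0.05. Col1a1, Col3a1, Sparc and Postn are filled in all 5 comparisons of arthritic with naive or healthy rats and open in the 3 comparisons of RTD-1 with saline and in both comparisons of healthy RTD-1 with naive rats. Fn1 is open in all 10, and its values in PIA over naive and in saline day 5 over naive changed sign with TMM factors.

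Healthy rats given RTD-1 were compared with naive rats, where group and depth cannot be told apart. limma called 0 of 5 genes on day 3 and 0 of 5 on day 5, beside 11.8% and 13.5% of all genes, and limma voom also called 0 of 5 on each day. Col1a1 had 31614, 18474, 18259, 29753 and 49320 normalized reads after 3 days and 34047, 20564, 60534, 27950 and 32138 after 5 days, against 22179, 22266, 21603 and 34572 in naive libraries. Both healthy groups overlapped the naive range, and each had a single library above it, replicate 5 on day 3 and replicate 3 on day 5. The median of all genes was 0.30 higher on day 3 and 0.34 higher on day 5, while the log2 fold changes of Col1a1 were 0.16 and 0.41, of Col3a1 0.13 and 0.48, of Fn1 0.62 and 0.60, of Sparc 0.22 and 0.55, and of Postn -0.37 and -0.13. With TMM factors the day 3 values of Col1a1, Col3a1 and Sparc turned negative. At an unadjusted p under 0.05 the members numbered 0 on day 3, beside 26.9% of all genes, and 1 on day 5, beside 28.8% of all genes. That gene was Sparc (limma adjusted p = 0.125).

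Arthritic and healthy rats that both received RTD-1 were compared on days 3 and 5, again with all healthy libraries deeper. Col1a1, Col3a1, Sparc and Postn rose in the arthritic rats on each day, 4 of 5 genes, and none of the 5 was called lower. Of all genes, 47.4% were called on day 3 (16.8% higher, 30.6% lower) and 44.3% on day 5 (10.7% higher, 33.6% lower). Day 3 gave log2 fold changes of 2.11 for Col1a1, 1.68 for Col3a1, 1.17 for Sparc and 3.19 for Postn (limma adjusted p at most 5.77e-06), and day 5 gave 1.74, 1.23, 0.73 and 2.88 (limma adjusted p at most 0.00352), while the median of all genes was -0.20 and -0.32. Fn1 did not pass on either day, at -0.55 on day 3 (SE 0.34, limma adjusted p = 0.175) and -0.64 on day 5 (SE 0.34, limma adjusted p = 0.115). It was called without healthy day 3 replicate 3, the lowest of its group, at -0.87 (limma adjusted p = 0.0338), and without healthy day 5 replicate 5 at -0.86 (limma adjusted p = 0.0452). Sparc on day 5 lost its call with replicates 1 to 4 only, at 0.57 (limma adjusted p = 0.0879).

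Fold changes depend on the factor of a library, whereas the ratio of 2 genes within a library does not. Ratios to Col1a1 were therefore compared between groups, a choice made after the data were seen, with two-sided exact permutation tests of 4 ratios in the 16 pairwise comparisons and Benjamini-Hochberg adjustment over all 64 tests. Fn1 and Sparc each had fewer reads per Col1a1 read in arthritic libraries. The difference passed adjustment in the larger groups given below and not in untreated PIA. A ratio falls wherever its gene rose less than Col1a1, and the folds above already held that: Sparc rose less and Fn1 was not called. The ratio tests therefore restate those folds without the library factor and are not separate evidence. Fn1 reads per Col1a1 read were 0.271, 0.285, 0.190 and 0.441 in PIA libraries, against 1.60, 1.12, 1.68 and 0.694 in naive libraries. Sparc reads per Col1a1 read were 0.156, 0.149, 0.163 and 0.148 in PIA libraries, against 0.287, 0.353, 0.455 and 0.277 in naive libraries. Both ratios separated PIA from naive without overlap (exact permutation p = 0.0286, the smallest that 4 against 4 allows), which did not pass adjustment (adjusted p = 0.135). PIA replicate 4, the lowest library for the raised genes, held a Sparc to Col1a1 ratio like the other 3.

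At day 5 the larger groups passed adjustment. The Fn1 to Col1a1 ratio averaged 0.271 ± 0.0771 after RTD-1 (SD, n = 8) and 0.313 ± 0.151 after saline (SD, n = 8), against 1.27 ± 0.458 in naive rats (SD, n = 4), log2 differences of -2.20 and -2.06 (exact permutation p = 0.00404, adjusted p = 0.0287 for each). The Sparc to Col1a1 ratio averaged 0.185 ± 0.0284 after RTD-1 and 0.177 ± 0.0184 after saline, against 0.343 ± 0.0823 in naive rats, log2 differences of -0.88 and -0.93 (exact permutation p = 0.00404, adjusted p = 0.0287 for each). These 4 calls were lost when naive replicate 1, 2 or 3 was left out (adjusted p = 0.0862) or naive replicate 4 (adjusted p = 0.0776). The smallest exact p that 8 against 3 libraries allows is 0.0121. The log2 differences then lay between -2.46 and -1.90 for Fn1 and between -1.02 and -0.73 for Sparc.

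Against healthy rats under RTD-1, the same ratios were lower in arthritic rats on both days. Fn1 to Col1a1 averaged 0.278 ± 0.101 in arthritic (SD, n = 8) and 1.99 ± 1.42 in healthy rats (SD, n = 5) on day 3, a log2 difference of -2.66, and 0.271 ± 0.0771 and 1.82 ± 1.41 on day 5, a log2 difference of -2.39 (exact permutation p = 0.00155, adjusted p = 0.0249 for each). Sparc to Col1a1 differed by -0.94 on day 3 (exact permutation p = 0.00311, adjusted p = 0.0287), a call lost without healthy day 3 replicate 1, 2, 3 or 4 (adjusted p = 0.0517), and by -1.01 on day 5 (exact permutation p = 0.00155, adjusted p = 0.0249). Postn moved the other way: its ratio to Col1a1 averaged 0.0947 ± 0.0355 in arthritic (SD, n = 8) and 0.0432 ± 0.0103 in healthy rats (SD, n = 5) on day 3, a log2 difference of 1.08 (exact permutation p = 0.00155, adjusted p = 0.0249). On day 5 the log2 difference of 1.14 did not pass (exact permutation p = 0.0295, adjusted p = 0.135), with healthy libraries between 0.0135 and 0.103. Against naive rats the Postn ratio did not pass in any comparison. All 4 PIA libraries, at 0.0949, 0.0948, 0.0891 and 0.0458, lay within the naive range of 0.0426 to 0.0964.

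The balance of type III to type I collagen passed adjustment in none of the 16 comparisons. Col3a1 reads per Col1a1 read averaged 0.691 ± 0.0210 in PIA and 0.809 ± 0.0993 in naive rats (SD, n = 4 each), which overlapped (exact permutation p = 0.114, adjusted p = 0.305). At saline day 5 the ratio averaged 0.605 ± 0.0956 (SD, n = 8), a log2 difference of -0.43 from naive (exact permutation p = 0.00808, adjusted p = 0.0517). It passed without saline day 5 replicate 3, the highest of its group (adjusted p = 0.0353). None of the 4 ratios passed in RTD-1 against saline on any day, where log2 differences ran between -0.41 and 0.29.

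**Figure D4:**
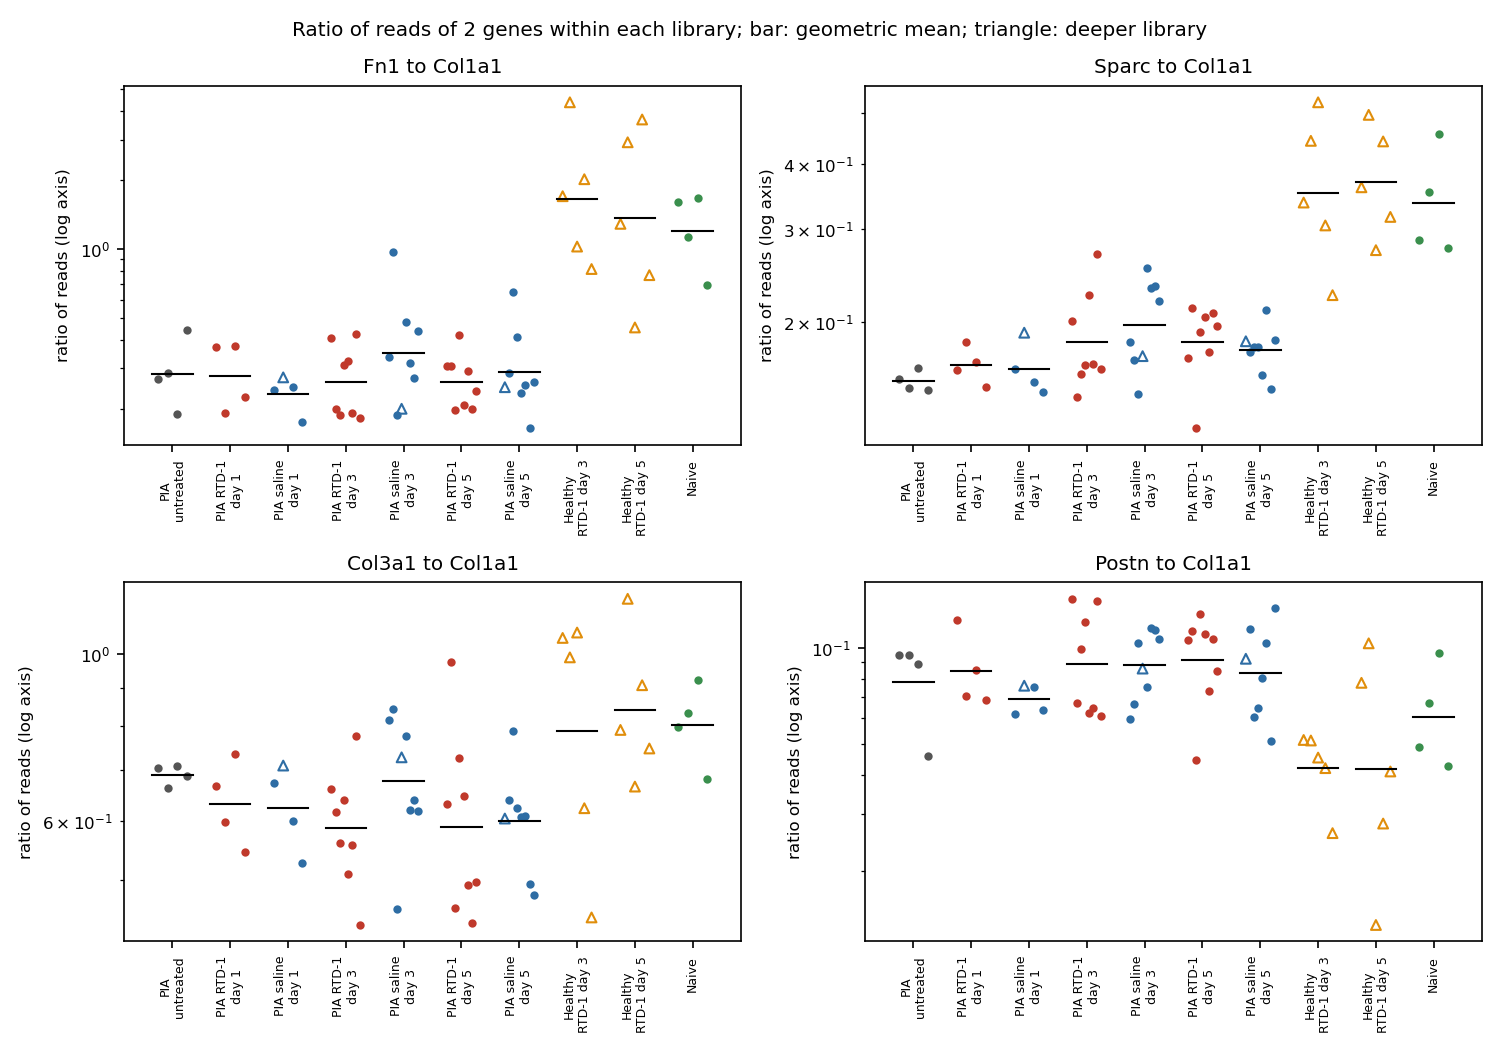
Reads of Fn1, Sparc, Col3a1 and Postn per read of Col1a1 within each library (log axes), with 1 point per library, triangles for the 13 deeper libraries and a bar at the geometric mean of each group. Fn1 to Col1a1 and Sparc to Col1a1 lay lower in PIA (at most 0.441 and 0.163) than in naive libraries (at least 0.694 and 0.277), while Col3a1 to Col1a1 and Postn to Col1a1 overlapped between those groups.

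As a share of all reads in genes, the 6 genes together took 13.5%, 8.99%, 14.4% and 6.13% in the PIA libraries, against 4.40%, 4.23%, 3.75% and 5.68% in the naive libraries. PIA replicate 4 came close to naive replicate 4 without overlap. The mean share was 11.7% ± 1.07 and 12.9% ± 0.700 after 1 day of RTD-1 and of saline (SD, n = 4 each), 11.4% ± 1.11 and 11.6% ± 0.681 after 3 days (n = 8 each), and 11.5% ± 1.89 and 11.1% ± 1.97 after 5 days (n = 8 each). Healthy rats given RTD-1 had 4.88% ± 1.17 at day 3 and 5.25% ± 0.800 at day 5 (n = 5 each), beside 4.52% ± 0.826 in naive rats (n = 4). The make-up of that share differed: Col1a1 and Col3a1 took 4.88% and 3.39% in PIA, against 1.36% and 1.06% in naive rats, while Fn1 took 1.31% in PIA, against 1.57% in naive rats. Sparc took 0.761% in PIA, against 0.444% in naive rats, and Postn 0.421%, against 0.0796%.

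**Figure D5:**
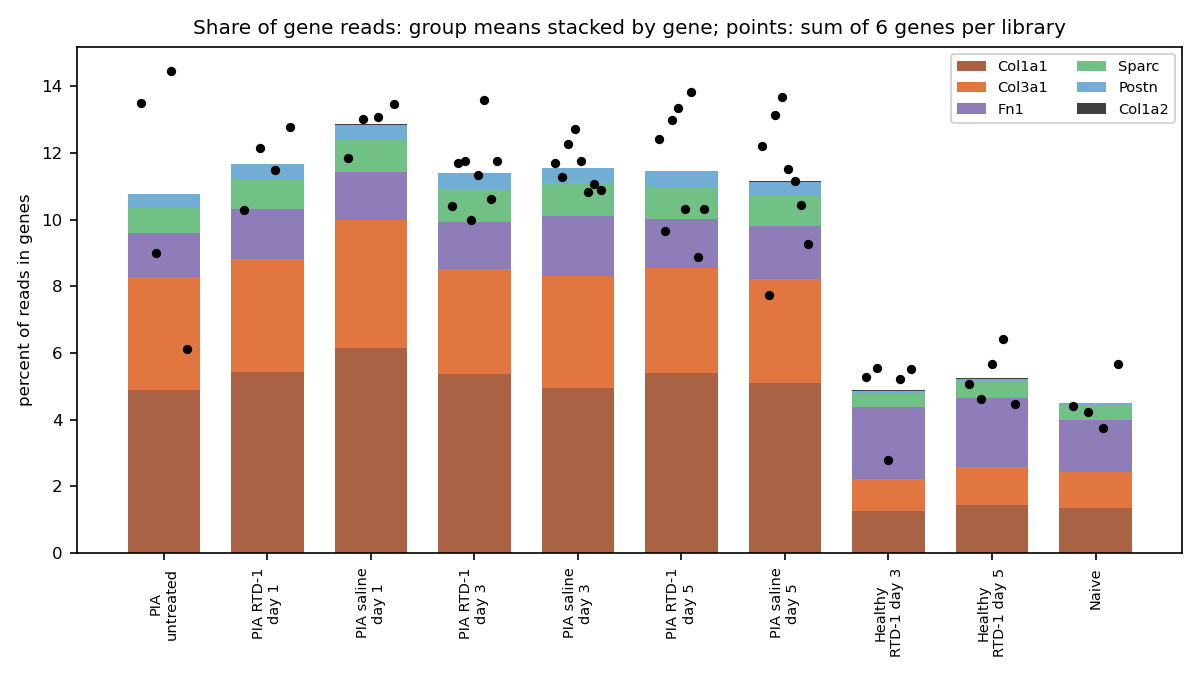
Percent of reads in genes taken by the 6 genes, with group means stacked by gene as bars that start at 0 and the sum of each library as a point. The sums lay between 6.13% and 14.4% in PIA libraries and between 3.75% and 5.68% in naive libraries, and Fn1 was the largest segment in both healthy groups and in naive rats.

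Within the arthritic groups the genes varied to different degrees. The pooled within-group SD of log2 normalized reads over the 44 arthritic libraries was 0.36 for Col1a1, 0.40 for Col3a1, 0.40 for Sparc, 0.54 for Postn and 0.57 for Fn1, beside a median of 0.45 over all tested genes and of 0.36 over the 194 genes whose log2 value averaged 10 or more. Postn and Fn1 were thus the more variable members from library to library, and Col1a1 the least. Libraries of a group also shared deviations. Over the 44 arthritic libraries, each centred on its group mean, Col1a1 correlated with Sparc (Pearson r = 0.82, permutation p = 1e-05, Spearman rho = 0.73, permutation p = 1e-05) and with Col3a1 (r = 0.76, permutation p = 1e-05, rho = 0.72, permutation p = 3e-05). Adjusted over the 8 relations computed, these p-values were at most 0.00012. The value 1e-05 is the smallest that 100000 permutations can give. Libraries share their scaling. Each gene also followed the reads in genes taken as a percent of the library factor in megareads (r between 0.52 and 0.72, as a description). The relations were therefore repeated on shares of reads in genes.

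As shares, Col1a1 still followed Sparc (r = 0.71, permutation p = 1e-05, rho = 0.58, permutation p = 0.00075) and Col3a1 (r = 0.60, permutation p = 0.00161, rho = 0.52, permutation p = 0.00276), and the 4 adjusted p-values over the 8 relations computed were at most 0.00552. Without the 2 libraries farthest from the median of Col1a1, r was 0.59 for Sparc and 0.44 for Col3a1, and without the 3 deeper libraries it was 0.72 and 0.59. Col1a1 and Fn1 did not vary together as shares (r = -0.03, permutation p = 0.833, rho = -0.03, permutation p = 0.844), against r = 0.37 on normalized reads (permutation p = 0.0284, adjusted p = 0.0378, rho = 0.34, permutation p = 0.0347, adjusted p = 0.0462), where r was 0.28 without the 2 farthest libraries. Postn followed Col1a1 on normalized reads (r = 0.56, permutation p = 0.00236, rho = 0.42, permutation p = 0.0111, adjusted p = 0.00378 and 0.0178), but as shares r was 0.37 (permutation p = 0.112, rho = 0.14, permutation p = 0.428, adjusted p = 0.128 and 0.490) and 0.09 without the 2 farthest libraries, so as shares the relation did not pass.

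The genes whose patterns were most like the mean of the 6 members are given by identifier, since no symbols were paired. Over the 10 group means the closest was ENSRNOG00000051792 (Pearson r = 0.96), and over the 44 arthritic libraries centred on group means it was ENSRNOG00000042499 (r = 0.91). These are descriptions over points that share libraries and scaling. In both measures the mean of the 6 also carries the pattern of the Col1a2 row. Among arthritic libraries that row had SDs of 4.55, 3.04 and 2.97 in the saline groups of days 1, 3 and 5. Pooled within-group SDs of the other members lay between 0.36 and 0.57, so the row weighs heavily in that mean. With that row left out, the closest genes were other identifiers, at r = 0.997 over group means and r = 0.912 over arthritic libraries.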

How the data were processed

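RNA from synovium was read as stranded total RNA libraries (single 75-nt reads), and the submitters' processing notes name HISAT and DESeq with no version. The sources used here do not give the strand setting, the annotation or the genome build. The authors deposited log2 values in 1 table of 16880 rows and 58 libraries, and the row without an identifier (0.000384% to 0.0137% of reads) was left out. Tested on the table, 100% of values above 0 were whole reads times 1 factor per library, within a relative tolerance of 0.001, with 0 reads held as 0.9 read. The values thus proved to be log2 values, where a table of reads had been assumed, and the test was chosen to fit them. Reads were recovered and scaled to the median factor (5.75 megareads), and limma 3.58.1 in R 4.3.3 was fitted to log2(normalized reads + 1), two-sided, with trend and robust moderation and 10 group means, over 13062 genes, those that reached 10 normalized reads in 4 or more libraries. The Benjamini-Hochberg adjustment ran over all of them. Fold changes on this scale understate those of low genes. Permutation tests used scipy 1.17.1. Alternatives were TMM factors, limma voom on recovered reads, other filters and pseudocounts, a replicate block, subsets of replicates and each library left out. The scripts were tested on simulated data. The members and lists were chosen with earlier results of these data known, and the ratios, the correlations and the likeness without Col1a2 were chosen with the values in view. The genes named are the 6 members, and the 2 identifiers named for likeness are the highest Pearson r for the mean of the 6. No pair of libraries of a group agreed within sampling noise (chi-square per degree of freedom at least 2.48). Apart from Col1a2, every member had at least 1215 reads in each library, and intervals of fold changes cover the spread between libraries.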

Additional observations from a re-analysis of the deposited data

Results flagged for a closer look

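Each set of 4 to 8 libraries was searched for a single library that stood apart from the rest of its group by Dixon's criterion, over the levels of 5 genes and their 4 ratios to Col1a1. It marked 4 of 90 groups, and chance marks about 1 in 20. In naive rats, Col1a1 of replicate 4 was 15.08 in log2 normalized reads, with the nearest naive library at 14.44. In healthy rats after 5 days of RTD-1, Col3a1 of replicate 3 was 15.30, with the nearest library of the group at 14.72. In arthritic rats after 5 days of RTD-1, the log2 ratio of Sparc to Col1a1 was -3.00 in replicate 3, with the nearest at -2.55. In untreated PIA, the log2 ratio of Postn to Col1a1 was -4.45 in replicate 4, with the nearest at -3.49.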

How the results depend on the processing

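The number of genes called, counted over all 6 with the Col1a2 row, stayed within 1.5 times its value in all 494 alternative values, and the 4 genes called in PIA over naive kept their calls in all 17 alternatives. Same-numbered libraries were only weakly correlated (from -0.215 to 0.277). This gave no ground for pairing libraries by number, but weak correlations cannot exclude pairing. The replicate block left 4 of 6 called in PIA over naive. Between PIA and healthy rats under RTD-1, leaving out 1 library gave 5 to 6 calls on each day, the Col1a2 row included. Of the ratios, 0 passed with replicates 1 to 4 only in RTD-1 day 5 over naive, saline day 5 over naive, and PIA over healthy on day 3 or day 5, where the smallest exact p that 4 against 4 allows is 0.0286. Leaving out 1 library gave 0 to 2 ratios in RTD-1 day 5 over naive, 0 to 3 in saline day 5 over naive, 2 to 3 in PIA over healthy, and 0 to 1 against untreated PIA for RTD-1 day 3 (without replicate 7), RTD-1 day 5 (without replicate 3), saline day 3 (without replicate 3) and saline day 5 (without replicate 3). Col3a1 to Col1a1 in PIA over healthy on day 5 passed without RTD-1 day 5 replicate 2 (adjusted p = 0.0388).

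Signs turned only in fold changes that were not called, and the cause was not tested. Comparisons with untreated PIA as reference, and averages or differences over days, are left out of the list that follows. With TMM factors, Fn1 was -0.18 in PIA over naive and -0.0238 in saline day 5 over naive, and in healthy day 3 over naive Col1a1 was -0.12, Col3a1 -0.14 and Sparc -0.0548. Fn1 in RTD-1 day 5 over naive was 0.17 with the replicate block and 0.13 with replicates 1 to 4 only. With those replicates, RTD-1 over saline was 0.0576 for Sparc on day 3, and on day 5 -0.13 for Col1a1, -0.10 for Col3a1 and -0.19 for Sparc, and Col1a1 in healthy day 3 over naive was -0.0543. With replicates 5 to 8 only, RTD-1 over saline was -0.31 for Postn on day 3 and 0.27 for Fn1 on day 5. Leaving out 1 library, RTD-1 over saline ran on day 1 from -0.191 to 0.0388 for Col1a1, -0.158 to 0.0331 for Col3a1 and -0.165 to 0.0709 for Sparc. On day 3 it ran from -0.00568 to 0.125 for Col1a1, -0.150 to 0.0333 for Sparc and -0.0525 to 0.176 for Postn. On day 5 it ran from -0.0314 to 0.142 for Col1a1, -0.0836 to 0.125 for Col3a1, -0.274 to 0.0904 for Fn1 and -0.00094 to 0.197 for Sparc. Over naive, Fn1 ran from -0.0655 to 0.213 in PIA, -0.178 to 0.0551 in RTD-1 day 5 and -0.131 to 0.233 in saline day 5, Col1a1 from -0.0543 to 0.320 and Col3a1 from -0.0223 to 0.214 in healthy day 3, and Postn from -0.366 to 0.0713 in healthy day 5.

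Leaving out the 3 deeper saline libraries changed no call of a member. Depth and group cannot be told apart for the healthy RTD-1 libraries.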
